A study of Sus scrofa with 4 samples.

Results

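The solute carriers are the genes whose symbols begin with SLC and a family number. They were taken from the platform annotation wherever a probeset carried exactly 1 such symbol. This gave 176 probesets for 120 genes, of 6765 genes named on the array, and a gene's values are those of its brightest probeset by mean log2 signal over the arrays. The choice used the symbols and the mean over all arrays, and did not use the difference between groups. The cells were dermal fibroblasts grown out of back wounds of 2 Duroc pigs, a breed used to model skin fibrosis, at 20 weeks. Each pig gave 1 culture from a shallow wound and 1 from a deep wound, so n = 2 per group, and RNA came from confluent cultures kept in serum. No array of unwounded skin or of another time point was analysed here, and the labels give no age for the animals. The titles pair the arrays by sample number, and pig 1 and pig 2 are named here on the reading that this number is the order of listing.

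Solute carriers are membrane proteins that move small molecules across the plasma membrane and the membranes of mitochondria, the Golgi and lysosomes, by facilitated diffusion or coupled to an ion gradient. Fibroblasts that lay down matrix use them to bring in glucose and amino acids, to exchange nucleotides and metabolites with mitochondria, and to fill the Golgi with the nucleotide sugars and sulfate donors from which glycoproteins and proteoglycans are built. Metal carriers supply copper to lysyl oxidase and zinc to metalloproteinases. The 120 genes were sorted by family into 11 substrate classes. The symbols of a set of 3 genes begin with SLC although their products are not transporters.

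Signals are MAS5 intensity units. To judge which genes gave a signal at all, each array was compared with its own 23 controls for absent transcripts. The highest of these read 14.8 (pig 1) and 13.6 (pig 2) for shallow and 21.8 (pig 1) and 30.9 (pig 2) for deep cultures. Of the 120 solute carriers, 81 exceeded it on all arrays, 22 on 1 to 3 arrays and 17 on none. Tests were limited to probesets whose mean log2 signal reached the 40th percentile, equal to a signal of 27.1, which 86 of the 120 genes passed, all but 5 of them above the controls on every array. The 5 were SLC11A1, SLC25A46, SLC29A1, SLC35C1 and SLC45A2, each below the controls on 1 array. All members of the metal, nucleotide sugar and monocarboxylate classes passed, and so did 20 of 21 mitochondrial carriers. By contrast 1 of 9 carriers of fatty acids, bile acids and organic ions passed, the carnitine carrier SLC22A5, and 5 of 13 carriers of inorganic ions. Among those under the filter were carriers known mainly from kidney, liver and gut, such as SLC22A2, SLC22A8, SLC10A1, SLC2A2 and SLC7A9. These did not exceed the controls except for SLC10A1 on 1 array. Other members under the filter exceeded the controls on more arrays, such as SLC22A6 on 3 and SLC15A2 and SLC5A1 on 2. The counts say which probesets gave a signal, and a signal is not compared between genes, since probesets differ in their brightness.

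**Figure D1:**
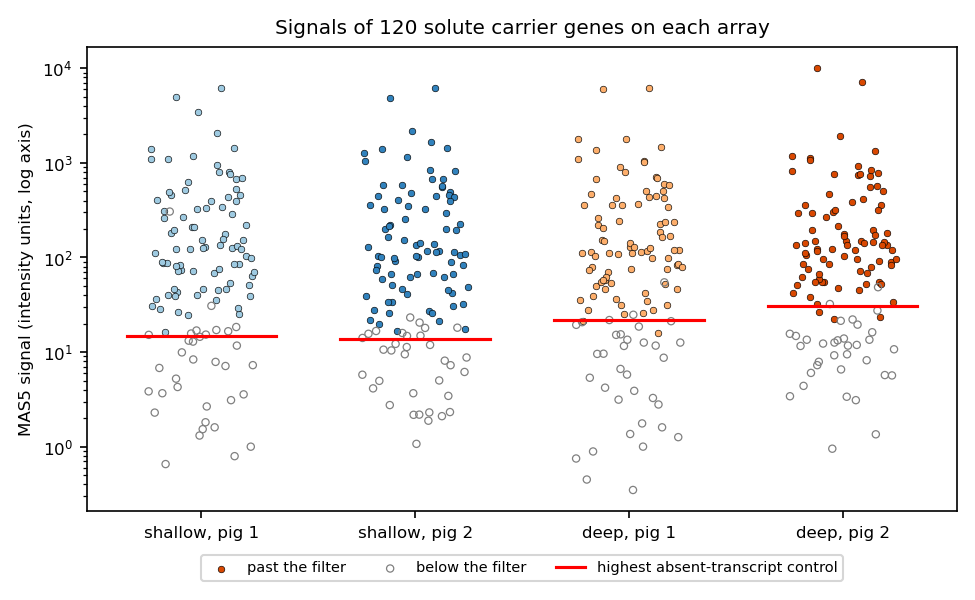
MAS5 signals (log axis) of the 120 solute carrier genes on the 4 arrays, 1 point per gene; filled points passed the filter, open points did not, and the red line is the highest absent-transcript control of that array. The line lies at 14.8 and 13.6 on the shallow and at 21.8 and 30.9 on the deep arrays, and 95, 96, 87 and 85 genes lie above it.

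The arrays differed in ways that moved with the groups. The actin 3' to 5' signal ratio, which rises as RNA is less intact, read 1.96 and 2.41 in shallow but 3.28 and 6.10 in deep cultures. The 28S ribosomal RNA controls read 1351 and 1836 in shallow and 3462 and 7621 in deep cultures. The hybridization control BioC read 677 and 819 in shallow and 878 and 2374 in deep cultures. Of 10 epithelial marker genes with a probeset, all 10 were highest in the shallow culture of pig 1. Their summed signal was 6249.8 there, 283 in the other shallow culture, and 362 and 216 in the deep cultures, and 5 of the 10 lay below the absent controls on at least 3 arrays. Fibroblast markers bore out the label, since all 11 measured exceeded the absent controls on every array. All 11 were also higher on both deep arrays than on both shallow arrays, with 0 past limma's adjusted threshold and 8 at an unadjusted p under 0.05. Among named genes 23.7% were higher without overlap and 7.40% at that p. The summed signals of the 11 were 34253 and 41270.4 in shallow and 55964 and 86367 in deep cultures. The 5 smooth muscle and pericyte markers summed to 654 and 1148 in shallow and 4696 and 3410.4 in deep cultures, and 5 leukocyte markers to between 76.6 and 131. ACTG2, smooth muscle gamma actin, made up most of the muscle sum (492 and 717 in shallow and 4269 and 2914 in deep cultures) and was the 1 marker of that list past the threshold (limma, adjusted p = 0.0351). The pericyte gene RGS5 read 50.7 and 336 in shallow and 187 and 218 in deep cultures. The 6 endothelial markers summed to 739 and 249 in shallow and 318 and 374 in deep cultures, mostly through PECAM1 (601 and 152 in shallow and 223 and 281 in deep cultures), while CDH5, KDR and TEK did not exceed the absent controls on any array. In cultures measured in bulk, fewer cells of a type and less RNA per cell cannot be told apart.

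No solute carrier passed the test for a difference between deep and shallow cultures. Differences are deep minus shallow on the log2 scale, given with the standard error of a limma fit blocked on the pig, with adjustment of p over all 14399 probesets tested. At an adjusted p under 0.05 limma called 0 of the 86 genes, and 0 of all 110 solute carrier probesets past the filter, where 49 of 14399 probesets (0.340%) were called in all. The smallest adjusted p among the 86 was 0.165. At an unadjusted p under 0.05, limma had 3 genes higher in deep cultures (3.49% of the 86, against 7.40% of 5272 named genes) and 4 lower (4.65%, against 8.06%). Both deep arrays lay above both shallow arrays for 15 genes (17.4%, against 23.7% of named genes) and below both for 15 (17.4%, against 28.4%). The members' shares therefore lay under those of all named genes on each of these counts, and the difference in share was not tested. The 86 genes were also dimmer, with median signals of 129.8 and 123 in shallow and 128 and 140.0 in deep cultures. Named genes past the filter had medians of 353 and 321 in shallow and 312 and 309 in deep cultures. The median standard error was 0.35 for the 86 and 0.31 for named genes. The part of brightness in the shares was not tested.

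The differences were also small. Their median over the 86 genes was 0.04, with quartiles of -0.25 and 0.34, where all named genes had a median of -0.04 and quartiles of -0.34 and 0.30. Measured mean differences of at least 2-fold were found for 4 of the 86 (4.65%), SLC2A12, SLC9A3R2, SLC29A1 and SLC25A11, and for 9.12% of named genes. For SLC29A1, which was below the absent control on 1 deep array, the bound was 1.74-fold. The standard errors ran from 0.26 to 0.81 with a median of 0.35, and 2 pigs limit the precision. Absence of a call does not show that shallow and deep cultures were alike.

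**Figure D2:**
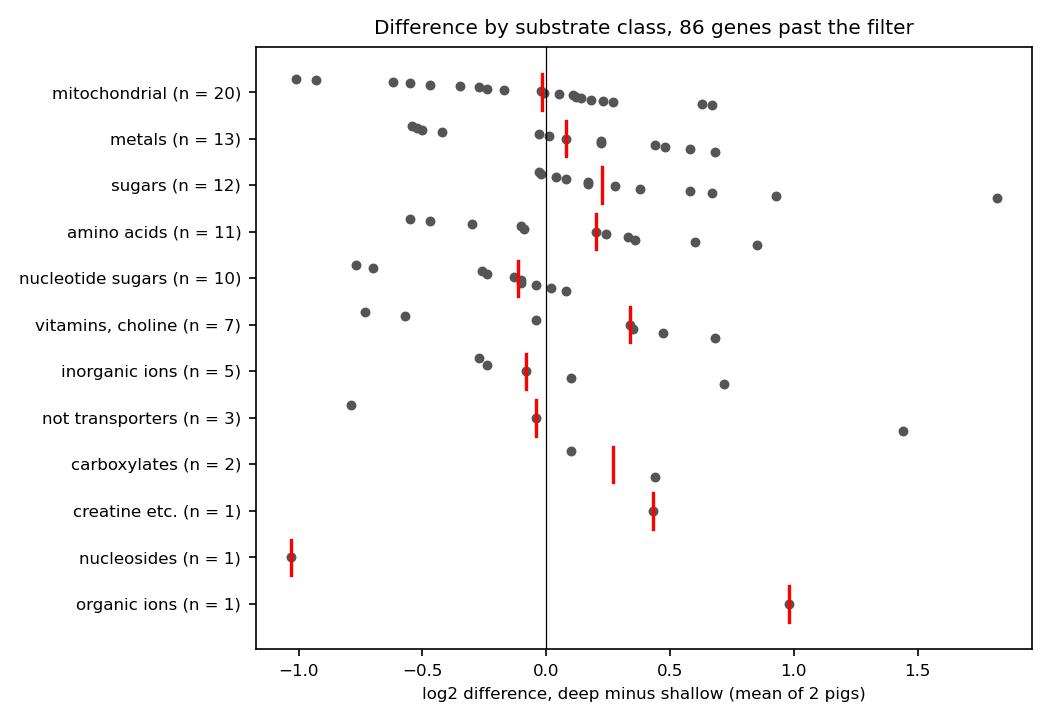
Log2 difference between deep and shallow cultures (mean of 2 pigs) of the 86 solute carrier genes past the filter, by substrate class, 1 point per gene, with the class median as a red bar. Of 12 sugar carriers, 10 lie above 0 with a median of 0.22. In the nucleotide sugar class, which holds the whole SLC35 family, 8 of 10 lie below 0 with a median of -0.12.

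Of the carriers of glucose and other sugars, 10 of 12 measured genes had a positive difference (2445 of 5272 named genes). Their median was 0.22, or 0.28 in pig 1 and 0.22 in pig 2, and 0.07 with the actin ratio as covariate. None passed the test, and in 3 (SLC2A12, SLC45A3 and SLC37A4) both deep signals exceeded both shallow ones, as in 23.7% of named genes. SLC2A12 encodes GLUT12, a glucose transporter of insulin-sensitive tissues. Its signals were 16.4 and 19.9 in shallow and 38.7 and 105 in deep cultures (pig 1 before pig 2, here and below). It was thus higher on the deep array in each pig and did not overlap between groups, and the deep signal of pig 2 was the highest. Both shallow signals lay under the filter signal of 27.1 and near the highest absent controls of 14.8 and 13.6. The gene thus passed the filter through its deep arrays, and its fold rests on dim shallow signals. The mean signal went from 18.1 ± 2.49 to 72.0 ± 47.0 (SD, n = 2), and the log2 difference was 1.82 ± 0.50, or 3.54-fold (limma, adjusted p = 0.171). With the deep array of pig 2 left out the difference became 1.10, and with that of pig 1 left out 2.55. With the actin ratio, highest on that pig 2 array, as covariate in place of the pig it was 0.21.

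SLC2A1 encodes GLUT1, the basal glucose transporter of most cultured cells. It read 946 and 845 in shallow and 1052 and 739 in deep cultures. The deep signals lay on either side of the shallow ones, and the difference of -0.02 ± 0.27 had a 95% interval of -0.65 to 0.60, so a 2-fold difference in either direction lay outside it. SLC2A3, the high-affinity transporter GLUT3, read 326 and 479 in shallow and 810.0 and 215 in deep cultures. It was the highest of all on the deep array of pig 1 and the lowest on that of pig 2, and its differences were 1.31 in pig 1 and -1.16 in pig 2. SLC2A5, the fructose transporter GLUT5, read 64.3 and 17.6 in shallow and 121 and 34.0 in deep cultures. Each pig's deep array was higher by a similar factor, but pig 1 exceeded pig 2 at both depths, so the groups overlapped (0.93 ± 0.42, adjusted p = 0.376). SLC45A3, a sucrose and hexose carrier known from prostate, read 46.3 and 67.0 in shallow and 76.0 and 104 in deep cultures, with both deep arrays above both shallow arrays (0.67 ± 0.37, adjusted p = 0.475). With the actin ratio as covariate the difference of SLC45A3 was 0.02. The insulin-responsive SLC2A4 (GLUT4) read 28.2 and 27.7 in shallow and 27.9 and 62.2 in deep cultures, and was high on the deep array of pig 2 alone. The remaining 6 genes, among them the glucose-6-phosphate carrier SLC37A4, the Golgi sugar carrier SLC50A1 and the intracellular GLUT8 gene SLC2A8, differed by -0.03 to 0.38.

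Of the carriers of lactate and other monocarboxylates, 2 had a named probeset and both passed the filter. SLC16A3, the lactate exporter MCT4 of glycolytic cells, read 131 and 88.9 in shallow and 235 and 91.5 in deep cultures. It was high on the deep array of pig 1 alone, with differences of 0.84 in pig 1 and 0.04 in pig 2 and a mean of 0.44 ± 0.36 (adjusted p = 0.646). SLC16A13 differed by 0.10 ± 0.40. The gene for their chaperone basigin, BSG, read 398 and 445 in shallow and 526 and 663 in deep cultures, both deep arrays above both shallow arrays (0.49 ± 0.27, adjusted p = 0.473).

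Amino acid carriers were divided. Of 11 measured genes 6 had a positive and 5 a negative difference, and the median was 0.20, with -0.16 in pig 1 and 0.17 in pig 2. None passed the test. SLC7A1, the arginine and lysine transporter CAT1, read 1419 and 1048 in shallow and 1110.1 and 1179.6 in deep cultures, and SLC1A5, the glutamine exchanger ASCT2, 671 and 498 in shallow and 600.1 and 777 in deep cultures. The groups overlapped in both genes, with differences of -0.09 ± 0.28 and 0.24 ± 0.30. The sodium-coupled glutamine carrier SLC38A1 likewise overlapped, at 795 and 562 in shallow and 705 and 553 in deep cultures (-0.10 ± 0.27, 95% interval -0.72 to 0.52). SLC3A2, the heavy chain CD98 that carries the large neutral amino acid transporters to the surface, read 86.5 and 81.6 in shallow and 113 and 143 in deep cultures. Both deep arrays were above both shallow arrays, by 0.60 ± 0.35 on average (adjusted p = 0.498). SLC7A4, a relative of the cationic carriers, read 39.5 and 32.1 in shallow and 46.3 and 88.9 in deep cultures. It too did not overlap, and most of its difference of 0.85 ± 0.47 came from pig 2 (0.38 without that pig's deep array). With the actin ratio as covariate the difference of SLC7A4 was -0.04.

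On the other side, SLC38A9, the lysosomal arginine sensor, read 286 and 295 in shallow and 224 and 197 in deep cultures (-0.47 ± 0.29, adjusted p = 0.538), and SLC3A1, the heavy chain of the cystine transporter, 82.6 and 99.1 in shallow and 69.5 and 55.0 in deep cultures (-0.55 ± 0.38). In both genes the deep arrays lay below the shallow arrays in each pig and between pigs. A second, dimmer probeset of SLC38A9 went the other way, with a difference of 0.19 ± 0.39. For SLC3A1 the mean over its probesets, including one under the filter, also had the opposite sign, at 0.26. SLC1A1, the glutamate and cysteine transporter EAAT3, read 266 and 16.9 in shallow and 54.3 and 54.6 in deep cultures, so that the extremes were the shallow arrays of the 2 pigs and the differences -2.29 in pig 1 and 1.69 in pig 2. Its signal was highest on the array where the epithelial markers were highest, with the marker sums given above, and their part in it was not tested. The remaining members, the exchanger gene SLC7A7, the serine and alanine carrier SLC1A4 and SLC38A10, differed by 0.20 to 0.36.

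**Figure D3:**
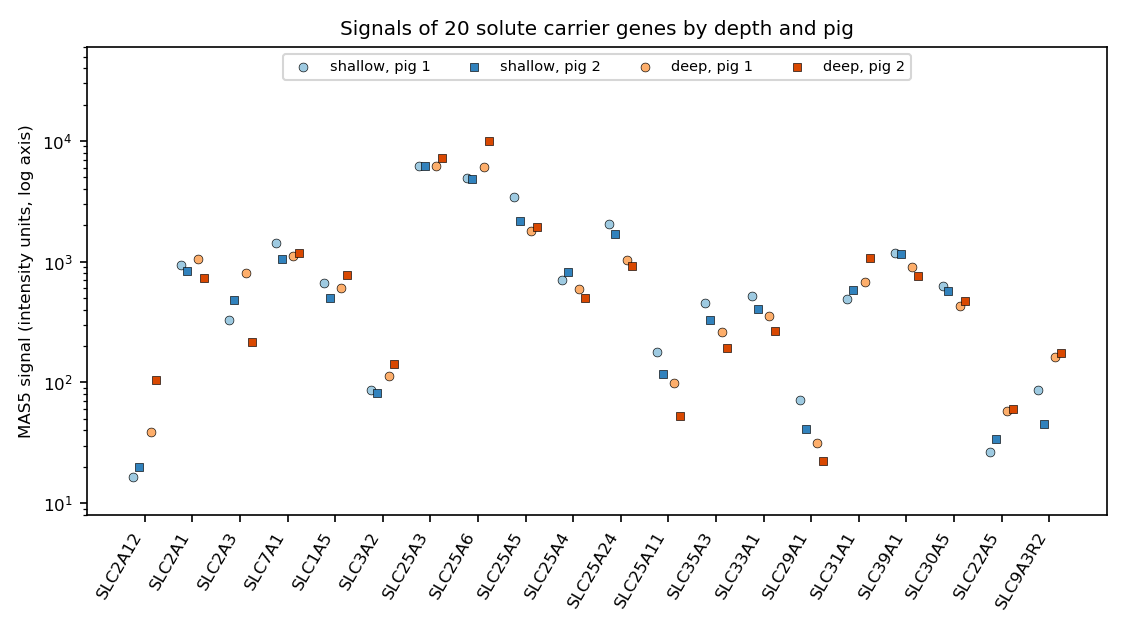
MAS5 signals (log axis) of 20 solute carrier genes on the 4 arrays, shallow in blue and deep in orange, circles for pig 1 and squares for pig 2. The deep points of SLC2A12 lie above its shallow points, those of SLC25A24, SLC25A11 and SLC35A3 lie below, and those of SLC2A1 and SLC7A1 lie among them.

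Mitochondrial carriers of the SLC25 family exchange metabolites across the inner mitochondrial membrane. Of 20 measured genes 9 had a positive and 11 a negative difference, with a median of -0.02. Without overlap 3 were higher and 6 lower on the deep arrays, where 23.7% and 28.4% of named genes were. None passed the test. SLC25A24, which exchanges ATP-magnesium for phosphate under the control of calcium, read 2054 and 1681 in shallow and 1032 and 920.4 in deep cultures. Both pigs showed a lower deep signal by nearly the same factor, -0.99 in pig 1 and -0.87 in pig 2. The mean signal went from 1868 ± 264 to 976 ± 78.9 (SD, n = 2), and the difference was -0.93 ± 0.26 (limma, adjusted p = 0.178). SLC25A11, the oxoglutarate carrier of the malate-aspartate shuttle, read 179 and 117 in shallow and 99.2 and 52.4 in deep cultures. The shallow arrays were again the higher, with a difference of -1.01 ± 0.35, or 2.01-fold (adjusted p = 0.253). Left-out arrays moved it to between -0.54 (without deep, pig 2) and -1.47 (without deep, pig 1), and with the actin ratio as covariate its sign turned, to 0.17.

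The ADP/ATP carriers, which export mitochondrial ATP, had differences of unlike sign. SLC25A6, an isoform found in many tissues, read 4950.0 and 4867 in shallow and 6094 and 10056 in deep cultures. Its deep signals exceeded both shallow signals, mostly in pig 2 (0.67 ± 0.31, adjusted p = 0.395). SLC25A5, the isoform of proliferating cells, read 3415 and 2172 in shallow and 1783 and 1941 in deep cultures, and SLC25A4, the isoform of heart and muscle, 699 and 815 in shallow and 590.4 and 505 in deep cultures. Both had lower deep signals with no overlap, by -0.55 ± 0.30 and -0.47 ± 0.28 (adjusted p = 0.465 and 0.507). The difference between isoforms was not tested. The actin 3' to 5' ratio was highest on the deep array of pig 2, where SLC25A6 was highest too, and its part in that value was not tested. With the actin ratio as covariate in place of the pig, the differences of SLC25A6, SLC25A5 and SLC25A4 were -0.08, -0.45 and -0.31. With quantile normalization they were 0.26, -0.65 and -0.41.

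The phosphate carrier SLC25A3, which feeds ATP synthesis, read 6180.1 and 6245 in shallow and 6205 and 7221 in deep cultures and differed by 0.11 ± 0.29 (95% interval -0.55 to 0.77). With quantile normalization the difference of SLC25A3 was -0.33. The carnitine-acylcarnitine carrier SLC25A20, which admits fatty acids for oxidation, read 455 and 436 in shallow and 342 and 358 in deep cultures (-0.35 ± 0.28, adjusted p = 0.635), and the citrate carrier SLC25A1 406 and 359.6 in shallow and 356 and 294 in deep cultures (-0.24 ± 0.28). In both genes the deep signals were the lower and did not overlap. SLC25A17, a carrier of the peroxisome, and the oxodicarboxylate carrier SLC25A21 differed by -0.02 and -0.01, with 95% intervals of -0.63 to 0.59 and -0.67 to 0.65. Mitoferrin 1, SLC25A37, which brings in iron, differed by 0.14 ± 0.32 at its brightest probeset and by 0.92 ± 0.31 at a second one, whose signals were 116 and 197 in shallow and 248 and 327 in deep cultures. The probesets of this gene thus gave different pictures, and neither passed the test (adjusted p = 0.891 and 0.241). SLC25A46, which acts at the outer membrane, had 26.5 on the deep array of pig 2, below the absent control there, and SLC25A48, whose brightest signal was 55.6, differed by 0.63 ± 0.43. The other 7 mitochondrial carriers differed by -0.27 to 0.27.

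Metal carriers were split by gene. Of 13 measured, 8 had a positive and 5 a negative difference, with a median of 0.08 that was -0.30 in pig 1 and 0.31 in pig 2, and none passed. SLC31A1, the copper importer CTR1, read 492 and 579.7 in shallow and 683 and 1075 in deep cultures. Its deep signals were above the shallow ones in each pig and between pigs, from 536 ± 61.9 to 879 ± 277 (SD, n = 2), a difference of 0.68 ± 0.28 (limma, adjusted p = 0.329), and 0.35 with the deep array of pig 2 left out. It was 0.11 as the mean over all probesets of the gene, dim ones included, and -0.09 with the actin covariate. The lysosomal relative SLC31A2 read 81.8 and 217 in shallow and 203 and 118 in deep cultures and showed opposite differences of 1.31 in pig 1 and -0.87 in pig 2. Zinc enters the cytosol through the SLC39 family and leaves it through the SLC30 family. SLC39A1, the importer ZIP1, read 1189 and 1155 in shallow and 897 and 762 in deep cultures. Its deep signals were the lower, with a difference of -0.50 ± 0.26 (adjusted p = 0.451), and a second probeset gave -0.27 ± 0.28. SLC30A5, which loads zinc into the secretory pathway, read 624 and 577 in shallow and 427 and 470.2 in deep cultures (-0.42 ± 0.27, adjusted p = 0.545). Its second probeset differed further, by -0.93 ± 0.30, from 408 and 408 in shallow and 252 and 182 in deep cultures (adjusted p = 0.228).

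SLC39A7, which releases zinc from the endoplasmic reticulum, read 760.1 and 681 in shallow and 688 and 846 in deep cultures and overlapped (0.08 ± 0.28). SLC39A4, the importer ZIP4, was somewhat higher on both deep arrays, at 70.0 and 49.3 in shallow and 80.2 and 95.7 in deep cultures (0.58 ± 0.40, adjusted p = 0.569). SLC39A14, an importer of zinc and of iron not bound to transferrin, read 39.9 and 62.6 in shallow cultures. Each pig's deep signal was lower (-0.68 in pig 1 and -0.40 in pig 2), yet the groups overlapped (-0.54 ± 0.43). The iron and manganese importer SLC11A2 (DMT1) read 75.8 and 68.3 in shallow and 34.7 and 72.3 in deep cultures, low on the deep array of pig 1 alone, and its second probeset had the same shape, with 29.7 on that array and at least 52.9 on the others. The magnesium carrier SLC41A1 differed by 0.01 ± 0.34, and the remaining SLC39A5, SLC11A1, SLC39A2 and SLC30A3 by -0.03 to 0.48.

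Nucleotide sugar and related carriers of the SLC35 family bring building blocks into the Golgi and endoplasmic reticulum. All 10 with a named probeset passed the filter. Of these 8 had a negative and 2 a positive difference, where 2827 of 5272 named genes had a negative one. The median was -0.12, or -0.15 in pig 1 and -0.22 in pig 2. None passed the test, and 2 had lower deep signals without overlap, where 28.4% of named genes did. SLC35A3, a carrier of UDP-N-acetylglucosamine, read 455 and 327 in shallow and 263 and 194 in deep cultures. The deep signal was lower by nearly the same factor in each pig (-0.79 in pig 1 and -0.76 in pig 2), and the mean signal went from 391 ± 90.5 to 228 ± 49.0 (SD, n = 2), a difference of -0.77 ± 0.28 (limma, adjusted p = 0.283), and -0.14 with the actin covariate. SLC35A4 was the other gene without overlap, at 196 and 164 in shallow and 153 and 148 in deep cultures (-0.26 ± 0.31). Carriers of the sulfate donor PAPS, used to sulfate proteoglycans, were SLC35B2, at 222 and 226 in shallow and 239.7 and 183 in deep cultures, and SLC35B3, at 399 and 323 in shallow and 371 and 389 in deep cultures. Their differences of -0.10 ± 0.31 and 0.08 ± 0.29 had 95% intervals of -0.81 to 0.61 and -0.58 to 0.74. SLC35B1, which carries ATP into the endoplasmic reticulum, read 793 and 678 in shallow and 503 and 762 in deep cultures, low on the deep array of pig 1. SLC35C1, the Golgi GDP-fucose carrier, was also low on that array alone, at 54.2 and 61.5 in shallow and 15.8 and 80.1 in deep cultures, below the absent control there. SLC35F5 read 1106 and 1284 in shallow and 1785 and 823 in deep cultures; its deep arrays held both the highest and the lowest signal, with a mean difference of 0.02 ± 0.35. SLC35F6, SLC35C2 and SLC35D2 differed by -0.13 to -0.04.

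Of the nucleoside carriers 1 passed the filter, SLC29A1, the equilibrative transporter ENT1, through which nucleosides are salvaged. It read 71.8 and 41.3 in shallow and 31.6 and 22.5 in deep cultures. Each pig's deep array was lower and the groups did not overlap, and the signal on the deep array of pig 2 lay below the absent control of 30.9. The measured difference was -1.03 ± 0.44 (limma, adjusted p = 0.359), and with that control in place of the signal shallow cultures were at least 1.74-fold higher. With the actin covariate the difference was -0.24. SLC22A5, OCTN2, which imports carnitine, was the only member of its class past the filter and read 26.3 and 33.8 in shallow and 58.0 and 59.9 in deep cultures. It was higher on the deep array in each pig (1.14 in pig 1 and 0.83 in pig 2), with a mean difference of 0.98 ± 0.43 (adjusted p = 0.369). The creatine transporter SLC6A8 read 180.1 and 201 in shallow and 222 and 296 in deep cultures, without overlap (0.43 ± 0.30, adjusted p = 0.574).

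Vitamin, choline and acetyl-CoA carriers had a median of 0.34 over 7 genes, but -0.45 in pig 1 and 0.24 in pig 2, and its sign turned without either array of pig 2, to -0.10 without the shallow and -0.27 without the deep one. SLC33A1, which takes acetyl-CoA into the endoplasmic reticulum, read 516 and 409 in shallow and 355 and 268 in deep cultures. The deep arrays were the lower (-0.57 ± 0.28, adjusted p = 0.414), and its 2 other probesets past the filter differed by -0.52 ± 0.30 and -0.71 ± 0.30. For SLC33A1 the difference was -0.34 as the mean over all its probesets, and -0.03 with the actin covariate. SLC5A6, the carrier of biotin and pantothenate, read 337 and 144 in shallow and 129 and 137 in deep cultures. It was high in the shallow culture of pig 1 and alike in the others, and its difference of -0.73 ± 0.39 was -0.12 without that array. SLC23A2, the vitamin C transporter SVCT2, read 35.1 and 27.3 in shallow and 25.6 and 95.7 in deep cultures, high on the deep array of pig 2 alone; the difference of 0.68 ± 0.59 was -0.27 without it. The folate carrier SLC46A1 likewise differed in sign between pigs (-0.74 in pig 1 and 1.68 in pig 2). SLC44A2, a choline transporter-like protein, differed by 0.34 ± 0.33. SLC46A2 differed by 0.35 ± 0.47 and the riboflavin carrier SLC52A2 by -0.04 ± 0.35.

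Carriers of inorganic ions had 5 genes past the filter, with a median of -0.08 and no gene free of overlap. SLC12A4, the potassium-chloride cotransporter KCC1, read 345 and 452 in shallow and 437 and 411 in deep cultures (0.10 ± 0.29), and the anion exchanger SLC26A6 123 and 154 in shallow and 108 and 124 in deep cultures (-0.24 ± 0.33). SLC9A5, a sodium-proton exchanger, was higher on each pig's deep array but overlapped, at 24.5 and 45.9 in shallow and 36.0 and 84.6 in deep cultures (0.72 ± 0.43, adjusted p = 0.509). SLC26A11, a sulfate carrier, and SLC8B1, the mitochondrial sodium-calcium exchanger, differed by -0.27 ± 0.37 and -0.08 ± 0.37.

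The 3 genes that are not transporters included the member with the smallest p. SLC9A3R2 encodes NHERF2, a scaffold that ties ion transporters and receptors to the cytoskeleton. It read 85.8 and 45.3 in shallow and 163 and 174 in deep cultures, both deep arrays above both shallow arrays, from 65.6 ± 28.7 to 169 ± 8.01 (SD, n = 2), a difference of 1.44 ± 0.39, or 2.71-fold (limma, adjusted p = 0.165). Its relative NHERF1, SLC9A3R1, read 261 and 103 in shallow and 80.0 and 112 in deep cultures. It was high in the shallow culture of pig 1 only, with a difference of -0.79 ± 0.46 that was -0.12 without that array. SLC2A4RG, a regulator of GLUT4 transcription, differed by -0.04 ± 0.35.

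Single arrays decided part of these values. Among the 86 genes 3 were at least 2-fold higher in the shallow culture of pig 1 than in any other, SLC1A1, SLC5A6 and SLC9A3R1 (3.49%, against 4.46% of named genes). Another 3 stood out in that way on the deep array of pig 2, SLC2A12, SLC2A4 and SLC23A2 (3.49%, against 1.21%), and none on the remaining arrays. The summed epithelial and endothelial markers stood highest in the first of these cultures and the actin ratio in the second, and the part of any of them in these genes was not tested. Leaving out 1 array changed calls. Without the shallow array of pig 1, limma called SLC9A3R2 (1.90, adjusted p = 0.0173), among 172 of 14399 probesets. With the other shallow array left out it differed by 0.97 (adjusted p = 0.121), and its adjusted p was 0.366 and 0.933 with the deep array of pig 1 or of pig 2 left out. Without the shallow array of pig 2 it called 5 solute carriers, SLC25A24 (-1.08), SLC35A3 (-1.01), SLC5A6 (-1.34), SLC9A3R1 (-1.46) and SLC1A1, among 1597 probesets (11.1%). Such fits have no pig block and rest on 1 array for the depth that lost one, assumed to vary like the other. Without either deep array 0 were called. With the actin ratio as covariate in place of the pig, 33 of the 86 differences changed sign and 0 were called.

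The pigs shared few of the differences. The sign was the same in both pigs for 44 of 86 genes (51.2%), of which 25 were higher and 19 lower in deep cultures, against 64.0% of named genes. Across the 86 genes the differences of the pigs had a Pearson's r of 0.06 and a Spearman's rho of 0.12. Across the 5272 named genes these were 0.37 and 0.38. Genes are not independent replicates and no test was made. The 86 were dimmer than the named genes, and the part of this in the lower agreement was not tested. At least 2-fold in both pigs and in the same direction, 1 solute carrier differed, SLC2A12 (1.16%, against 3.83% of named genes). The shallow signals of SLC2A12 were near the absent controls. SLC2A3 and SLC1A1 differed at least 2-fold in opposite directions.

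**Figure D4:**
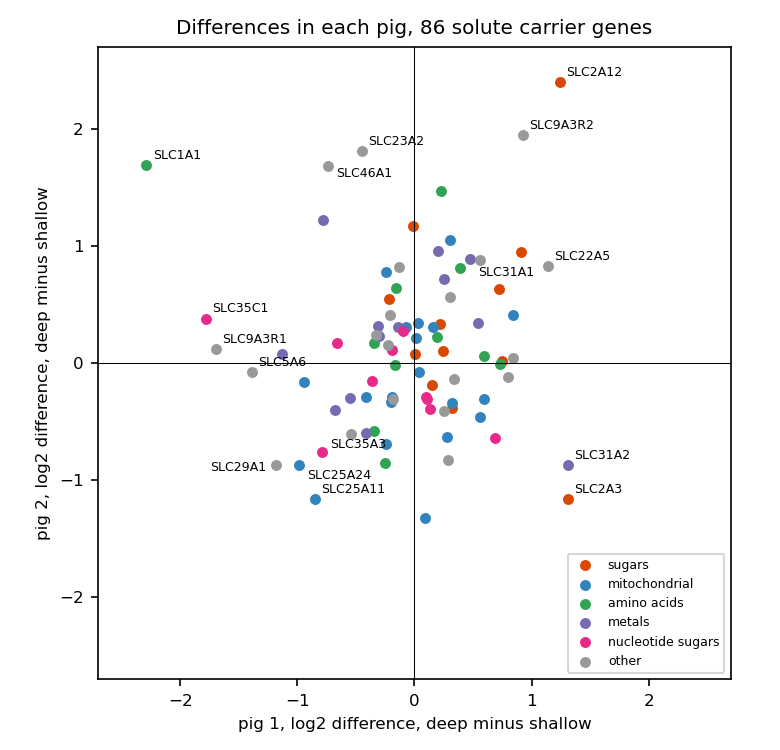
Log2 difference between deep and shallow cultures in pig 1 (x axis) and pig 2 (y axis) for the 86 solute carrier genes past the filter, with 5 substrate classes in colour and the others in grey. SLC2A12 and SLC9A3R2 lie at the upper right, SLC29A1, SLC25A24, SLC25A11 and SLC35A3 at the lower left, and 42 genes lie in the quadrants of opposite sign.

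Genes with several probesets show how far a value depends on the probeset that read it. Of 19 solute carriers with at least 2 probesets past the filter, 13 had differences of the same sign at all of them and 6 did not. The range between probesets of a gene had a median of 0.24 and a maximum of 0.78, for SLC25A37. Of those with like signs, SLC45A3 differed by 0.67 ± 0.37 and 1.23 ± 0.40 at its probesets, and the zinc exporter SLC30A3 by 0.48 ± 0.42 and 0.99 ± 0.47. The 3 probesets of SLC38A1 lay between -0.19 and 0.05.

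**Figure D5:**
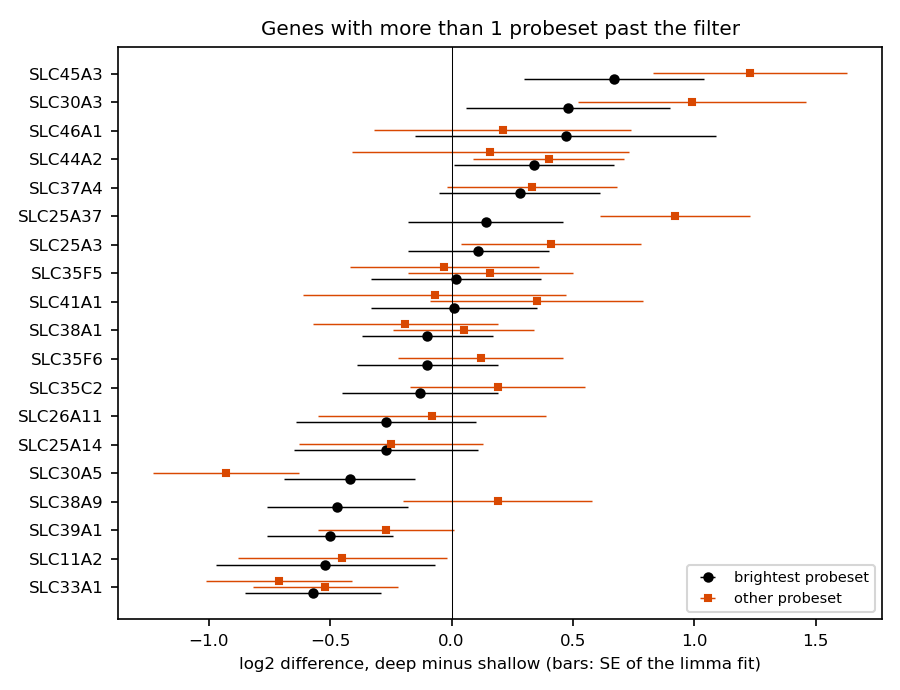
Log2 difference between deep and shallow cultures at every probeset past the filter of the 19 solute carrier genes that have more than 1; circles are the brightest probeset of a gene, squares the others, and bars the standard error of the limma fit. The probesets of SLC25A37 and SLC38A9 lie far apart, and the 3 of SLC33A1 all lie below 0.

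Other transport genes, which are not solute carriers by symbol, were taken from a list of 38 pumps, channels, ABC and organic anion transporters and partners, chosen with earlier results of these data known. Of 23 with a probeset 19 passed the filter, 0 passed the test in either direction (limma), and the median was -0.06. At an unadjusted p under 0.05, 3 were higher and 1 lower (7.40% and 8.06% of named genes), and 7 had higher and 5 lower deep signals without overlap (23.7% and 28.4% of named genes). The organic anion transporter SLCO3A1 read 94.5 and 97.6 in shallow and 278 and 261 in deep cultures, much alike in the 2 pigs (1.49 ± 0.31, adjusted p = 0.0966). The cholesterol exporter ABCA1 read 91.6 and 85.9 in shallow and 149 and 194 in deep cultures (0.94 ± 0.34). The water channel AQP1 went the other way, at 154 and 142 in shallow and 85.6 and 56.7 in deep cultures (-1.09 ± 0.35, adjusted p = 0.231). ATF4, the transcription factor that drives amino acid carrier genes, read 3149 and 3513 in shallow and 4624 and 5571 in deep cultures (0.61 ± 0.28). The mitochondrial pyruvate carrier genes MPC1 and MPC2 differed by -0.32 ± 0.29 and -0.25 ± 0.28, and the sodium pump subunits ATP1B1 and ATP1B3 by -0.09 ± 0.30 and 0.26 ± 0.28.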

How the data were processed

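Values were deposited by the authors as 1 MAS5 signal intensity per probeset and array, on a linear scale, and the submitters' processing notes name MAS5 and GCOS 1.0. The mean of each array without its top and bottom 2% of probesets was 250.1, so arrays share 1 scale, and the scaling target is not given in the sources used here. An array carries no read depth, so that the number of arrays limits precision. Of 24123 probesets 124 controls were left out. Signals under 1 were set to 1 (2547 of 95996 values) and taken to log2, and probesets at or above the 40th percentile of mean log2 signal were kept (14399). Genes were named from the platform annotation (10069 probesets with 1 symbol), and 118 of 120 members were found in the RefSeq gene table by identifier, with the same symbol.

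The depths were compared by limma's lmFit and eBayes (trend), version 3.58.1 in R 4.3.3, with the pig as a block, Benjamini-Hochberg adjustment over 14399 probesets and a threshold of 0.05. The block comes from the design, in which both wounds lay on the same animal. The correlation of a pig's 2 arrays, as deviations from the mean of each depth, was -0.01, with 1 residual and 6.88 prior degrees of freedom. Intervals are 95% intervals of the moderated fit. A bound puts the highest absent-transcript control in place of a lower signal in the dimmer group. It applies to the measured signals and is not a confidence limit. The fit was tested on simulated data.

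Genes were named by a rule: members past the threshold, the 12 largest differences each way among genes above the controls on both arrays of a depth, the 3 brightest and 2 largest of each class, and 19 listed genes, of which 10 were measured. Other members are named after their values were seen. The members, classes and lists were chosen with earlier results of these data known. Tables and plots were made with pandas 2.3.3 and matplotlib 3.10.9 in Python 3.11.15.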

Additional observations from a re-analysis of the deposited data

Results flagged for a closer look

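Members left out by the filter on dim probesets were looked at again where a signal was over 2 times the highest absent-transcript control of its array. SLC4A2, the chloride-bicarbonate exchanger AE2, read 11.7 and 7.26 in shallow and 54.6 and 48.5 in deep cultures. Both shallow signals lay below their controls of 14.8 and 13.6. The deep signals lay above theirs, at 54.6 in pig 1 against 21.8 and 48.5 in pig 2 against 30.9. The mark of over 2 times the control was thus met in pig 1 and not in pig 2. With the shallow controls in place of the shallow signals, the measured deep signals were 3.62-fold higher on average. The controls differed between arrays, and the part of this in the fold was not tested. In the limma fit without the filter the adjusted p of SLC4A2 was 0.383. SLC1A6, a glutamate transporter of the brain, read 306 in the shallow culture of pig 1, and 10.6, 9.56 and 6.02 in the other shallow and the 2 deep cultures, all below the controls. The epithelial markers were highest on that first array, and their part in the signal was not tested. SLC5A1, the intestinal sodium-glucose cotransporter, read 30.8 on the same array against a control of 14.8. It exceeded the control of the other shallow array too (mean of both 24.4 ± 9.02, SD). It lay below the controls in deep cultures, at 18.6 and 22.1. Both of these deep signals were nevertheless above the shallow signal of pig 2, and the deep arrays had the higher controls. The place of SLC5A1 above or below the controls thus does not show a lower signal in deep cultures.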

How the results depend on the processing

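With 2 pigs and 1 residual degree of freedom, limits on the report are set by the number of arrays, and dim probesets by the absent controls. The count of solute carriers past the threshold was 0 with no replicate block (smallest adjusted p = 0.244 by limma, 7 genes at an unadjusted p under 0.05). It was also 0 with the block on the crossed pairing (0.101), quantile normalization (0.121), arrays centred on the median (0.155), a floor of 16 (0.147), no filter on dim probesets (0.383) and the actin covariate (1.00), and 0 to 5 with 1 array left out. Over all probesets limma called 49, but 202 on the crossed pairing, 96 with quantile normalization, 20 with the mean of all probesets of a gene, and 0 with no replicate block, no filter or the actin covariate. The median of all solute carriers was 0.04, and -0.03 with the actin covariate. The median of sugar carriers was 0.27 with quantile normalization, 0.07 with the actin covariate, 0.17 with the mean of all probesets of a gene, and 0.16 to 0.33 with 1 array left out. That of the nucleotide sugar class, the SLC35 family, was -0.05 with quantile normalization and -0.25 to -0.10 with 1 array left out. With the actin covariate the median was 1.11 for monocarboxylate carriers, -0.06 for SLC6A8 alone in its class, -0.24 for SLC29A1 alone in its class, -0.63 for the genes that are not transporters and -0.40 for vitamin carriers. With 1 array left out it was -0.04 to 0.58, 0.22 to 0.64 and -1.43 to -0.63 for the first 3 of these classes in turn, and -0.27 to 0.25 for vitamin carriers. The cause of these shifts was not tested. Other class medians moved by less than the SD between the pigs. Signs of 7 of 86 genes changed with quantile normalization, 2 with median centring, 9 with the mean of all probesets, and 13 to 19 with 1 array left out.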
